A study of Taxus mairei and Taxus cuspidata and Taxus x media with 9 samples.

Results

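The 24 unigenes described here carry the names or annotations of very-long-chain fatty acid and cuticular wax synthesis. They were chosen from the 33895 unigenes of a joint assembly of 3 *Taxus* species. A unigene was taken if its KEGG annotation held ko00062 (fatty acid elongation) or ko00073 (cutin, suberine and wax), or if its gene name was KCS or CER followed by digits. Unigenes that also held ko00592 were left out, which removed 0. Of the 24, 19 were named KCS, 3 were named CER and 2 entered through ko00062. No unigene held ko00073.

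RNA came from twigs, that is wood and needles, of cultivated trees of *T. cuspidata*, *T. mairei* and *T. media*. All trees were 3 years old and grew untreated in 1 growth chamber, so that species was the only labelled difference between the groups. *T. media* is a cultivated hybrid of *T. baccata* and *T. cuspidata*. Each species had 3 libraries, and the study's methods call them biological replicates and give 5 trees per species without saying which trees went into which library.

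Very-long-chain fatty acids are built in the endoplasmic reticulum by an elongase of 4 enzymes. 3-Ketoacyl-CoA synthase (KCS) performs the condensation that lengthens the chain, and the KCS isoform sets which chain lengths are accepted. In Arabidopsis, CER1 and CER3 turn the products into alkanes, which are main components of the wax that seals needles and young stems.

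The label of the pathway was only partly met by the unigenes. In these files ko00062 bears the older title of fatty acid elongation in mitochondria. The 2 unigenes it brought in were comp27535_c0, annotated as palmitoyl-protein thioesterase, and comp23293_c0 (At3g45770), annotated as mitochondrial trans-2-enoyl-CoA reductase. Neither is a wax enzyme, and no cutin enzyme was among the 24. The name rule also passed over 2 unigenes named CUT1, which in Arabidopsis is another name of KCS6. Of the gene ontology terms, "integral to membrane" was held by 20 of 24 and "fatty acid biosynthetic process" by 17. The terms "response to cold" and "response to light stimulus" were held by 13 each, "icosanoyl-CoA synthase activity" by 9 and "wax biosynthetic process" by 5. The 24 unigenes were 283 to 2342 bp long, with a median of 1467.5 bp against 509 bp for all unigenes, and 8 were shorter than 600 bp.

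Levels are given as TPM, that is reads per length of the unigene, scaled so that each library has an equal sum. Differences are log2 fold changes of normalized counts with their standard error (SE), tested in edgeR with its quasi-likelihood test and Benjamini-Hochberg adjustment over all 32624 unigenes tested, and they are positive where the species named first was higher. A unigene was called a DEG at an adjusted p below 0.05 and an absolute log2 fold change above 1. Counts were deposited for 8 libraries, 32783233 to 44821305 per library, and *T. mairei* replicate 3 has TPM without counts. The tests therefore rest on 2 libraries of *T. mairei*, while TPM values cover all 9. The scale matters for *T. mairei*. On log2(TPM + 1), the median over all unigenes was 0.61 between *T. media* and *T. mairei* and -0.41 between *T. mairei* and *T. cuspidata*, against 0.02 and 0.06 on normalized counts. Comparisons with *T. mairei* on the 2 scales should be read relative to these medians.

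Tissue markers also differed between the species. The 37 needle markers, taken by name (RBCS, CAB and LHCB), are Rubisco small subunits and light-harvesting proteins except for CAB39, which is annotated as calcium binding protein 39 and had at most 10.4 TPM. They summed to 17100 to 30400 TPM in *T. media*, between 36500 and 42900 in *T. cuspidata* and 2890 to 5100 in *T. mairei*. Of the 37, 13 were at 0 in *T. cuspidata* and 11 in *T. mairei*. Most of those at 0 in either species had reads in *T. media* replicate 1 and none in its replicates 2 and 3. An example was RBCS comp16910_c0, with 51.0, 0 and 0 TPM in *T. media*. The 4 wood markers (CESA4, CESA7, CESA8 and LAC17) summed to 21 to 23.9, 16.4 to 25.8 and 57 to 87.7 TPM. CESA8 was present in all 3 species, while LAC17 was at 0 in *T. cuspidata*. CESA7 went against the sum, with means of 7.97 TPM in *T. cuspidata* and 0.84 in *T. mairei*. The other 3 were higher in *T. mairei* than in *T. cuspidata*. The 9 epidermis markers, transcription factors related to ATML1 and GL2, summed to 151 to 167, 136 to 161 and 56.7 to 60.2 TPM, with none at 0. Wax is made in the epidermis, so these values stand beside every comparison with *T. mairei* given here, and their part in the results was not tested. In whole twigs, fewer cells of a type and less RNA per cell cannot be told apart.

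*T. media* had the most members called higher. In *T. media* vs. *T. cuspidata*, 11 of 24 (45.8%) were higher in *T. media* and 0 were lower, where 25.8% of all unigenes tested were called in either direction, 15.7% as higher in *T. media* and 10.1% as lower. In *T. media* vs. *T. mairei*, 14 were higher and 2 lower in *T. media* (66.7% together), against a background of 44.3% called, 20.8% higher in *T. media* and 23.5% in *T. mairei*. In *T. mairei* vs. *T. cuspidata*, 4 were higher and 6 lower in *T. mairei*, together 41.7% beside the 49.3% called among all unigenes, 27.8% as higher in *T. mairei* and 21.5% in *T. cuspidata*. By limma on log2(TPM + 1) this last split was 1 higher and 5 lower.

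The median log2 fold change of the 24 was 0.83 between *T. media* and *T. cuspidata*, 2 between *T. media* and *T. mairei* and -0.22 in the remaining comparison, and the medians of all unigenes were 0.04, 0.02 and 0.06. By mean TPM, *T. media* held the highest level for 18 of 24 members (75%) and for 38.6% of all unigenes tested. On normalized counts it was 13 of 24 (54.2%) against 28.1%. The 3 TPM values of *T. media* all lay above those of *T. cuspidata* for 14 members and all below for 3, where 50.5% of all unigenes did not overlap, 30.3% above and 20.2% below. They lay above those of *T. mairei* for 18 members and below for 2, against 74.6% of all unigenes, 51.9% above and 22.7% below. *T. mairei* lay above *T. cuspidata* for 4 members and below for 10, against 71.4% of all, 27.1% above and 44.3% below.

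**Figure D1:**
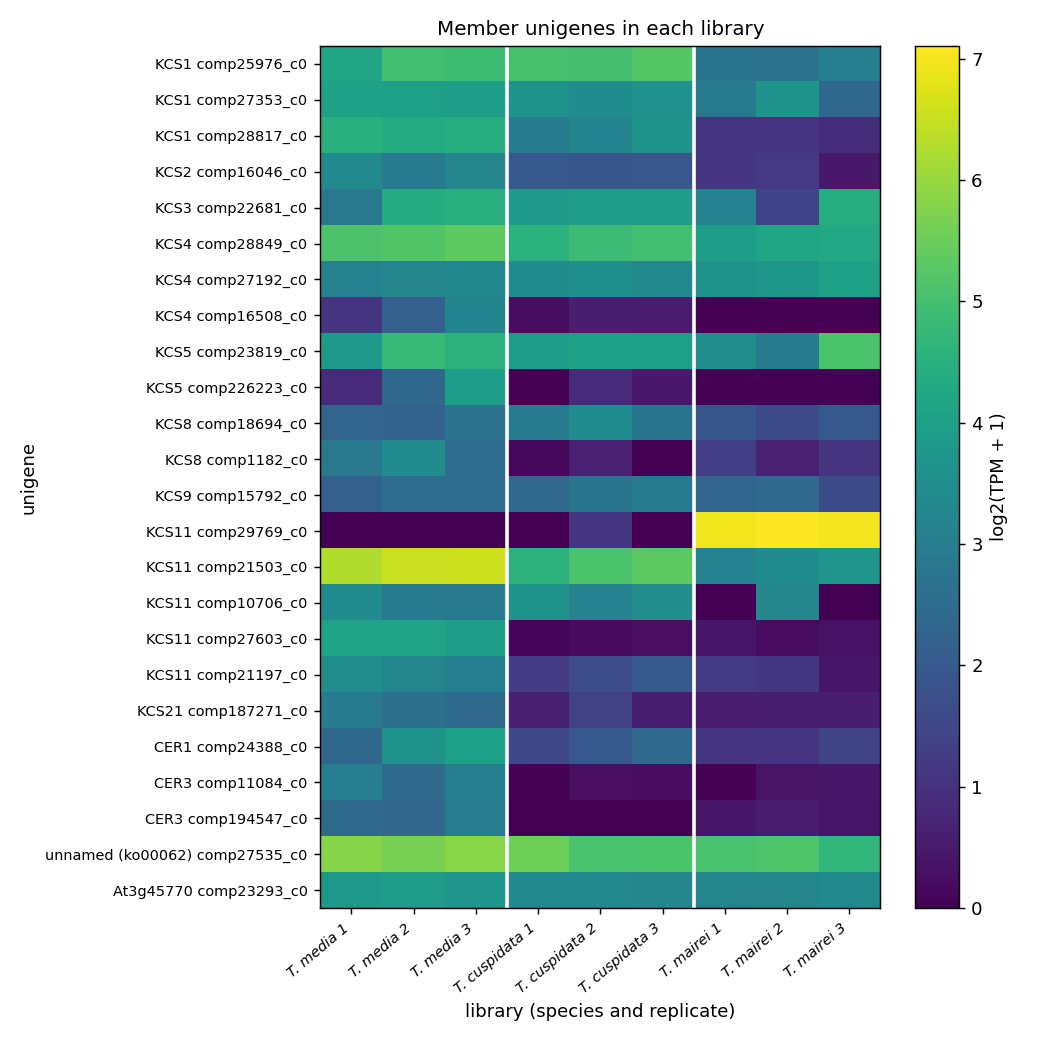
Level of each of the 24 unigenes (rows, by gene name) in each of the 9 libraries (columns, 3 per species), as log2(TPM + 1) on a colour scale. KCS11 comp29769_c0 is bright in the 3 *T. mairei* libraries, where it reached 122 to 137 TPM, and dark in the others, while the CER rows are brightest in *T. media*.

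KCS11, a gene name carried by 5 unigenes, had the highest summed level of the 11 KCS and CER names in *T. media* and *T. mairei*, but different unigenes led in each. The leading KCS11 unigene in *T. media*, comp21503_c0 (1957 bp), measured 75.1, 90.3 and 92.6 TPM in the *T. media* libraries, 22.6, 32.9 and 38.6 in *T. cuspidata*, and 7.86, 9.94 and 12.0 in *T. mairei*. The 3 species did not overlap, in the order *T. media*, *T. cuspidata*, *T. mairei*, and all 3 comparisons were called. The log2 fold change was 1.37 (SE 0.23, adjusted p = 0.0026) for *T. media* vs. *T. cuspidata*, 2.57 (SE 0.28, adjusted p = 0.00018) for *T. media* vs. *T. mairei* and -1.20 (SE 0.26, adjusted p = 0.0048) for *T. mairei* vs. *T. cuspidata*.

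The leading KCS unigene of *T. mairei* was another one, comp29769_c0 (2181 bp, also KCS11). It measured 122, 137 and 126 TPM in *T. mairei*. It was at 0 in all 3 *T. media* libraries, and at 0, 1.17 and 0 in *T. cuspidata*. The contrast with *T. media* had an adjusted p of 0.0031 and that with *T. cuspidata* of 0.0059 (log2 fold change 8.98, SE 1.78). Without *T. cuspidata* replicate 2, the one library of that species with reads of it, the fitted value was 17.34. That value rests on 0 reads in *T. cuspidata* and does not measure the size of the difference.

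This unigene shared reads with a second KCS11 unigene, comp10706_c0 (2145 bp), which is named here because of that and was chosen after its values were seen. comp10706_c0 measured 9.75, 6.77 and 6.31 TPM in *T. media* and 11.5, 7.91 and 10.3 in *T. cuspidata*. In *T. mairei* it was at 0 in replicates 1 and 3 and at 8.84 in replicate 2. Only in *T. mairei* replicate 2 and *T. cuspidata* replicate 2 were the counts of both unigenes fractional, 19889.11 with 1264.89 and 129.82 with 865.18, and there they added up to whole numbers, 21154 and 995. The split of reads between the pair therefore differed between libraries of 1 species, and neither unigene is certain on its own.

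The sum of the pair did not depend on that split. It came to 122, 145 and 126 TPM in *T. mairei*, with 11.5, 9.08 and 10.3 in *T. cuspidata* and 9.75, 6.77 and 6.31 in *T. media*. With the counts of both summed before the fit, *T. mairei* was higher than *T. cuspidata* by a log2 fold change of 4.35 (SE 0.21, adjusted p = 2.7e-06). Between *T. media* and *T. mairei* it was -4.87 (SE 0.21, adjusted p = 3.7e-06). Between *T. media* and *T. cuspidata* it was -0.53 (SE 0.17, adjusted p = 0.046), which is below the fold threshold.

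The remaining KCS11 unigenes were both called higher in *T. media* than in the other species. comp27603_c0 measured 16.5, 16.7 and 14.9 TPM in *T. media*, with 0.06, 0.16 and 0.22 in *T. cuspidata* and 0.31, 0.17 and 0.27 in *T. mairei*. The log2 value was 6.62 (SE 0.42, adjusted p = 3e-05) against *T. cuspidata* and 5.36 (SE 0.47, adjusted p = 6.3e-05) against *T. mairei*. Near its floor it was also called higher in *T. mairei* than in *T. cuspidata* (1.27, SE 0.44, adjusted p = 0.035), with overlapping TPM values. That last call was lost without *T. cuspidata* replicate 1 (0.92), *T. cuspidata* replicate 2 (adjusted p = 0.067), *T. mairei* replicate 1 (0.78) or any *T. media* library (adjusted p = 0.054 to 0.059). It was also lost with the replicate number as a block (1.39, adjusted p = 0.072), with only the 2 species fitted (adjusted p = 0.16) and on log2(TPM + 1) (0.13, adjusted p = 0.57).

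comp21197_c0 measured 10.2, 8.40 and 7.37 TPM in *T. media*, with 1.40, 2.22 and 3.01 in *T. cuspidata* and 1.29, 1.22 and 0.35 in *T. mairei*. *T. media* stood above both without overlap, by 1.87 (SE 0.29, adjusted p = 0.0019) and 2.08 (SE 0.34, adjusted p = 0.0014) on the log2 scale.

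Of the 3 KCS1 unigenes, 2 were called lower in *T. mairei* than in both other species. In Arabidopsis, KCS1 takes part in wax synthesis of stems and seedlings. comp28817_c0 (1631 bp) measured 21.7, 19.6 and 20.4 TPM in *T. media*, with 6.43, 8.2 and 11.4 in *T. cuspidata* and 1.10, 1.14 and 0.90 in *T. mairei*. The species did not overlap. The log2 fold change was 1.21 (SE 0.22, adjusted p = 0.0035) for *T. media* vs. *T. cuspidata*, 3.52 (SE 0.28, adjusted p = 4.1e-05) for *T. media* vs. *T. mairei* and -2.31 (SE 0.27, adjusted p = 0.00018) for *T. mairei* vs. *T. cuspidata*.

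comp25976_c0 (1741 bp) was the leading KCS unigene of *T. cuspidata*. It measured 17.5, 30.4 and 28.8 TPM in *T. media*, with 31.9, 31.2 and 36.6 in *T. cuspidata* and 5.76, 5.29 and 7.44 in *T. mairei*. It was higher in *T. media* than in *T. mairei* by 1.52 (SE 0.26, adjusted p = 0.0017) and lower in *T. mairei* than in *T. cuspidata*, with a log2 fold change of -1.97 (SE 0.27, adjusted p = 0.00041). *T. media* vs. *T. cuspidata* was not called (-0.45, SE 0.22, adjusted p = 0.15). The counts of comp25976_c0 were fractional in *T. media* replicates 1 (1576.97) and 2 (2062.86). So were those of KCS5 comp23819_c0 in replicate 1 (378.03) and of KCS3 comp22681_c0 in replicate 2 (190.14). In each library these counts add up to a whole number, so comp25976_c0 shared reads with those unigenes there, and the split is uncertain. The remaining KCS1 unigene, comp27353_c0, was called in no comparison, with means of 15.2, 10.8 and 7.6 TPM in *T. media*, *T. cuspidata* and *T. mairei*, and of 32.5, 24.4 and 32.5 on normalized counts (CPM), where *T. mairei* was not lowest.

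Of the 3 KCS4 unigenes, the strongest was called in no comparison. comp28849_c0 (2132 bp) measured 33.9, 35.0 and 39.4 TPM in *T. media*, with 22.2, 28.0 and 30.8 in *T. cuspidata* and 14.5, 17.6 and 18.5 in *T. mairei*. The TPM values did not overlap, but the log2 fold change on counts was 0.33 (SE 0.17, adjusted p = 0.16) against *T. cuspidata* and 0.47 (SE 0.19, adjusted p = 0.066) against *T. mairei*. On log2(TPM + 1) the latter was 1.06 with an adjusted p of 0.00032 by limma, against the median of 0.61 over all unigenes given above.

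comp27192_c0 (2342 bp) was the only member besides comp29769_c0 that was called lower in *T. media* than in *T. mairei*. It measured 7.72, 8.40 and 9.02 TPM in *T. media*, with 9.97, 10.7 and 9.19 in *T. cuspidata* and 11.3, 12.7 and 15.8 in *T. mairei*. Against *T. mairei*, *T. media* had a log2 fold change of -1.16 (SE 0.13, adjusted p = 0.00025). It was -0.97 with library sizes alone and -0.60 on log2(TPM + 1), both short of the fold threshold and in the same direction. *T. mairei* vs. *T. cuspidata* was 0.83 (SE 0.13, adjusted p = 0.001), also short of it.

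comp16508_c0 (793 bp), the weakest KCS4, was at 0 in all 3 *T. mairei* libraries. It measured 1.15, 3.49 and 8.14 TPM in *T. media* and 0.21, 0.51 and 0.47 in *T. cuspidata*. It was at least 79.7-fold higher in *T. media* and at least 8.35-fold higher in *T. cuspidata* than in *T. mairei*, against 3 counts over the *T. mairei* libraries with counts. Against *T. cuspidata*, *T. media* had a value of 3.34 (SE 0.80, adjusted p = 0.017). Without *T. media* replicate 3 it was 2.41 (adjusted p = 0.053). The *T. mairei* vs. *T. cuspidata* call (adjusted p = 0.019) was lost without *T. mairei* replicate 1 (adjusted p = 0.071) or 2 (adjusted p = 0.062).

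**Figure D2:**
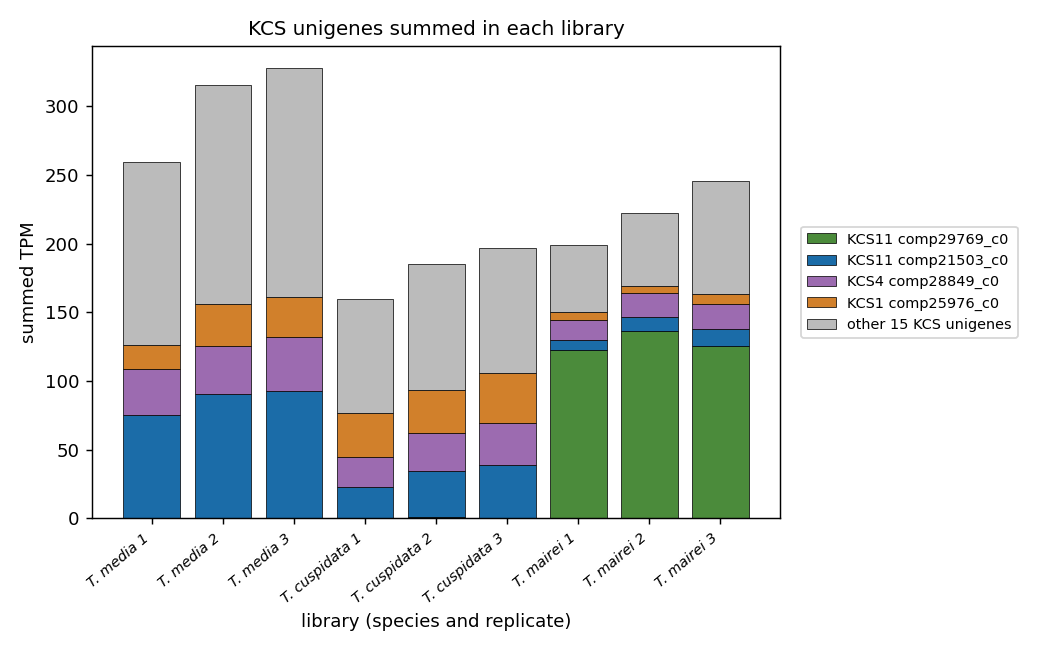
Summed TPM of the 19 KCS unigenes in each library (bars, from 0), divided into the 4 strongest unigenes and the other 15. In *T. mairei*, comp29769_c0 fills 51.1 to 61.4% of the bar, while in *T. media* comp21503_c0 fills 28.3 to 28.9%.

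The KCS2 and KCS21 unigenes, at lower levels, were higher in *T. media* than in both other species. KCS2, which in Arabidopsis acts in suberin synthesis of roots, was represented by comp16046_c0 with 9.36, 6.81 and 8.38 TPM in *T. media*, with 2.89, 2.71 and 2.82 in *T. cuspidata* and 1.20, 1.27 and 0.41 in *T. mairei*. *T. media* was higher than *T. cuspidata* by 1.46 (SE 0.22, adjusted p = 0.0017) and than *T. mairei* by 2.02 (SE 0.27, adjusted p = 0.00045). KCS21 (comp187271_c0, 539 bp) measured 6.6, 5.15 and 4.53 TPM in *T. media*, with 0.55, 1.62 and 0.51 in *T. cuspidata* and 0.48, 0.52 and 0.51 in *T. mairei*. Its log2 fold changes were 2.5 (SE 0.5, adjusted p = 0.0059) and 2.72 (SE 0.60, adjusted p = 0.0055).

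KCS8 was carried by 2 short unigenes, of which 1 was called. comp1182_c0 (389 bp) measured 6.13, 9.82 and 4.78 TPM in *T. media*, with 0.11, 0.56 and 0 in *T. cuspidata* and 1.48, 0.57 and 1.20 in *T. mairei*. It was higher in *T. media* than in *T. cuspidata* by 4.77 (SE 0.92, adjusted p = 0.005). *T. media* vs. *T. mairei* was 2.03 (SE 0.88, adjusted p = 0.085), and this passed the threshold in 7 of 19 alternatives. It did so without *T. cuspidata* replicate 2 (adjusted p = 0.037) or 3 (adjusted p = 0.04) and with only the 2 species fitted (adjusted p = 0.02). It also passed with the recovered reads of *T. mairei* replicate 3 (1.93, adjusted p = 0.042) and by limma on log2(TPM + 1) (1.90, adjusted p = 0.00085).

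The call of comp1182_c0 in *T. mairei* vs. *T. cuspidata* (2.74, SE 0.98, adjusted p = 0.04) was lost without any single library other than *T. cuspidata* replicate 2, with adjusted p values of 0.054 to 0.25, and was 4.65 without that one. It was also lost with the replicate number as a block (2.63, adjusted p = 0.092) and on log2(TPM + 1) (0.77, adjusted p = 0.062). The other KCS8 unigene, comp18694_c0, and the KCS9 unigene, comp15792_c0, were called in no comparison. Their means were 4.42 and 4.38 TPM in *T. media*, with 7.5 and 5.58 in *T. cuspidata*, and 2.54 and 3.5 in *T. mairei*.

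The longer KCS5 unigene and the KCS3 unigene varied widely among libraries of 1 species. KCS3 (comp22681_c0, 537 bp) measured 6.27, 20.1 and 20.8 TPM in *T. media*, with 13.4, 14.9 and 14.2 in *T. cuspidata* and 8.02, 1.67 and 20.4 in *T. mairei*. KCS5 (comp23819_c0, 1099 bp) measured 13.5, 26.7 and 22.6 in *T. media*, 13.9, 15.3 and 15.3 in *T. cuspidata* and 10.3, 6.73 and 33.3 in *T. mairei*. Both were highest in *T. mairei* replicate 3 among the *T. mairei* libraries, and the 3 species overlapped. In *T. media*, both shared reads with KCS1 comp25976_c0, as given above.

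The count test, which does not hold that library, called both lower in *T. mairei*. For *T. media* vs. *T. mairei* the log2 fold changes were 1.98 (SE 0.62, adjusted p = 0.026) for KCS3 and 1.36 (SE 0.33, adjusted p = 0.0087) for KCS5. For *T. mairei* vs. *T. cuspidata* they were -2.07 (SE 0.62, adjusted p = 0.02) and -1.73 (SE 0.33, adjusted p = 0.0026). With the reads of *T. mairei* replicate 3 recovered from its RPKM, none of the 4 was called. *T. media* vs. *T. mairei* became 0.29 (adjusted p = 0.79) for KCS3 and turned to -0.32 (adjusted p = 0.72) for KCS5, and *T. mairei* vs. *T. cuspidata* became -0.40 and -0.06.

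Without *T. mairei* replicate 2, *T. media* vs. *T. mairei* was 1.43 (adjusted p = 0.15) for KCS3 and 0.98 (adjusted p = 0.061) for KCS5, and KCS3 in *T. mairei* vs. *T. cuspidata* was -1.52 (adjusted p = 0.13). KCS3 in *T. media* vs. *T. mairei* was also lost without *T. media* replicate 2 (adjusted p = 0.068) or 3 (adjusted p = 0.073), and with the replicate number as a block (1.83, adjusted p = 0.1), which also ended its call in *T. mairei* vs. *T. cuspidata* (-1.98, adjusted p = 0.068). Neither unigene was called against *T. mairei* once all 9 libraries were used.

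The second KCS5 unigene, comp226223_c0, was the shortest member (283 bp). It measured 0.81, 4.31 and 14.7 TPM in *T. media*, with 0, 0.84 and 0.41 in *T. cuspidata* and 0 in the 3 *T. mairei* libraries. It was at least 17.6-fold higher in *T. media* than in *T. mairei* (adjusted p = 0.025), a call lost without either *T. mairei* library with counts (adjusted p = 0.1 and 0.093). *T. media* vs. *T. cuspidata* was 3.80 (SE 1.32, adjusted p = 0.06), and 4.33 (adjusted p = 0.03) without *T. media* replicate 1.

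**Figure D3:**
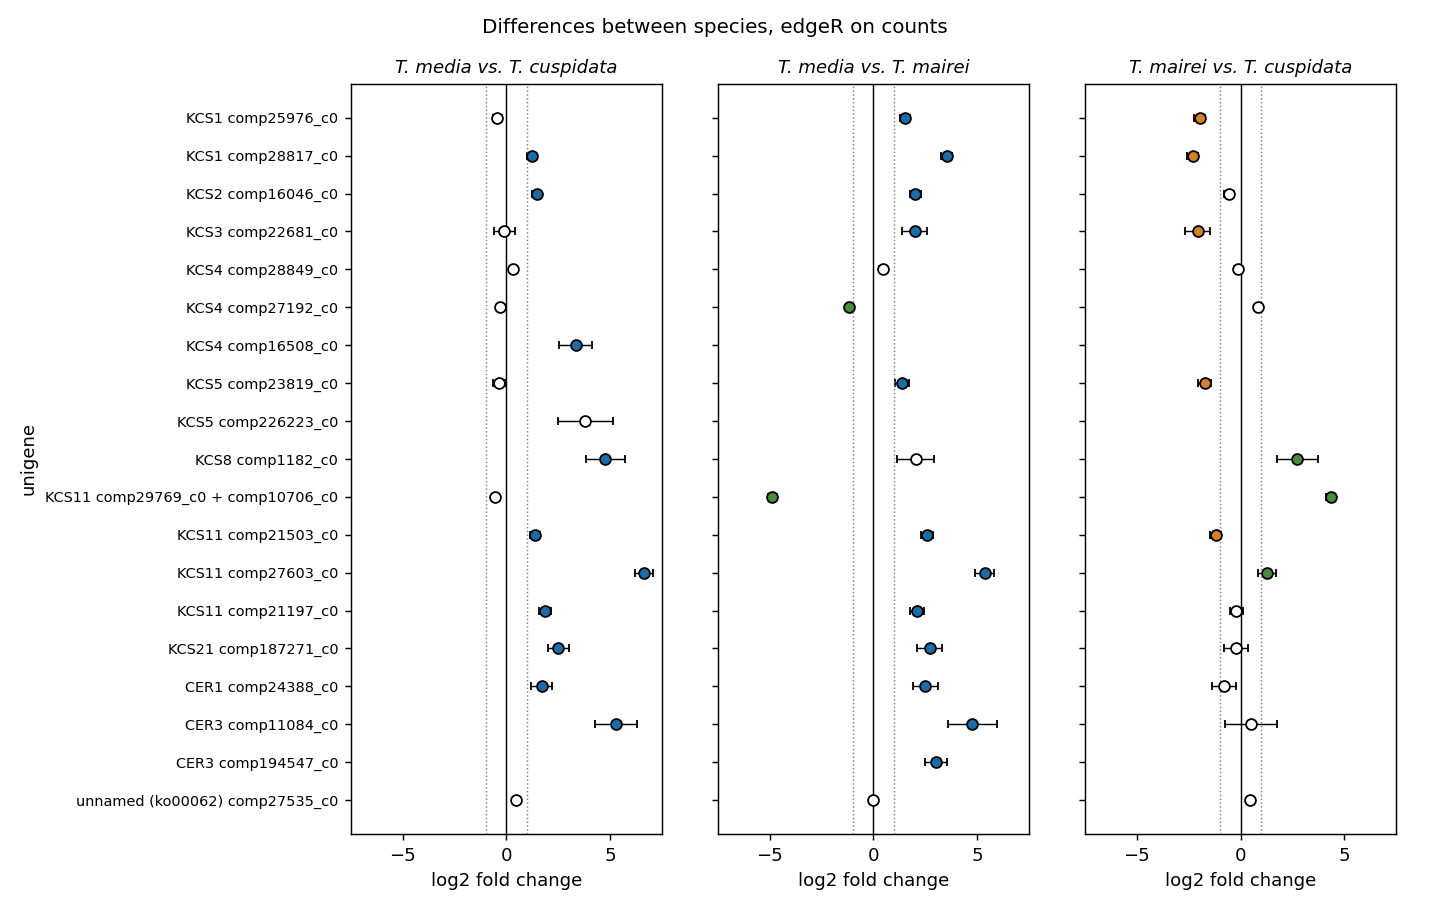
Log2 fold changes (points) with SE (bars) from edgeR, in the 3 comparisons, for members called in any comparison or with a mean of at least 20 TPM. Weaker members called in no comparison are not shown, apart from the summed pair. Filled points were called, in blue where higher in *T. media*, orange in *T. cuspidata* and green in *T. mairei*, and dotted lines mark the fold threshold of 1. The 2 KCS11 unigenes that share reads are plotted as 1 sum, and comparisons in which a species had no reads are left out. Called points lie to the right in the first panel, without exception, and on both sides in the last.

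Summed over the 19 unigenes, the KCS level was 301 ± 36.4 TPM in *T. media*, 222 ± 23.3 in *T. mairei* and 180 ± 19.1 in *T. cuspidata* (SD, n = 3). No test was made on this sum. The lowest *T. media* library (259) lay above the highest library of *T. mairei* (246) and of *T. cuspidata* (197). Without comp29769_c0 the sum in *T. mairei* was 94.4 ± 22.8 TPM. On normalized counts, which are not divided by length, the order differed. *T. mairei* (2 libraries) had 751 CPM (counts scaled to a common total), *T. media* 510 and *T. cuspidata* 334. Without comp29769_c0, *T. mairei* had 227, again with comp10706_c0 kept. The scaling of libraries differs too. Between *T. media* and *T. mairei*, the median over all unigenes was 0.61 on log2(TPM + 1) and 0.02 on normalized counts. The part of length and of scaling in the order was not tested.

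The KCS total was spread unevenly. A single unigene made up at least 50% of the mean total in *T. mairei*, where comp29769_c0 held 57.9%. In *T. cuspidata* it took 3 unigenes, led by comp25976_c0 (18.5%), comp21503_c0 (17.2%) and comp28849_c0 (14.9%). In *T. media* it took 4, led by comp21503_c0 (28.6%) and comp28849_c0 (12.1%).

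The 3 CER unigenes were all highest in *T. media*. CER1 (comp24388_c0, 2057 bp) measured 4.24, 11.2 and 15.5 TPM in *T. media*, with 1.86, 2.88 and 4.36 in *T. cuspidata* and 1.17, 1.11 and 1.75 in *T. mairei*. Within *T. media*, replicate 1 was lowest in CER1, KCS3 and KCS5 comp23819_c0, and it also had the lowest summed needle markers (17100 TPM against 26400 and 30400). The members went both ways, however. Replicate 1 was also lowest in others, such as KCS11 comp21503_c0 (75.1 TPM). It was highest in KCS1 comp28817_c0 (21.7 TPM), KCS2 (9.36) and KCS21 (6.60), among others. The part of the needle markers in these values was not tested. For CER1, *T. media* lay above *T. mairei* in every library, while its replicate 1 lay within the range of *T. cuspidata*. The log2 fold change was 1.69 (SE 0.50, adjusted p = 0.031) against *T. cuspidata* and 2.49 (SE 0.61, adjusted p = 0.0089) against *T. mairei*.

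Both CER1 calls depended on single libraries. That against *T. cuspidata* was lost without *T. cuspidata* replicate 1 (1.41, adjusted p = 0.066) or 2 (adjusted p = 0.086), *T. mairei* replicate 1 (adjusted p = 0.051) or 2 (adjusted p = 0.05), or *T. media* replicate 2 (adjusted p = 0.074) or 3 (1.23, adjusted p = 0.11). That against *T. mairei* was lost without *T. mairei* replicate 1 (2.51, adjusted p = 0.059) or 2 (2.47, adjusted p = 0.061).

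The 2 CER3 unigenes, comp11084_c0 (530 bp) and comp194547_c0 (581 bp), had their highest levels in *T. media*, below 0.5 TPM in every library of the other species. comp11084_c0 measured 7.29, 4.47 and 7.33 TPM in *T. media*, with 0, 0.22 and 0.21 in *T. cuspidata* and 0, 0.29 and 0.36 in *T. mairei*. The log2 value was 5.28 (SE 1.01, adjusted p = 0.0048) against *T. cuspidata* and 4.77 (SE 1.16, adjusted p = 0.0089) against *T. mairei*. The latter was 9.76 without *T. mairei* replicate 2, the one library of that species with both counts and reads of it. That value rests on 0 reads in *T. mairei* and does not measure the size of the difference. comp194547_c0 measured 4.53, 4.11 and 6.87 TPM in *T. media*, 0 in the 3 *T. cuspidata* libraries and 0.34, 0.46 and 0.32 in *T. mairei*.

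Against 3 counts over the *T. cuspidata* libraries, comp194547_c0 was at least 100-fold higher in *T. media* (adjusted p = 0.00039) and at least 12.5-fold higher in *T. mairei* (adjusted p = 0.0012). *T. media* vs. *T. mairei* was 2.99 (SE 0.53, adjusted p = 0.0043). On log2(TPM + 1), where a pseudocount of 1 exceeds the levels compared, *T. mairei* vs. *T. cuspidata* was 0.46 (adjusted p = 0.13). Summed over the 3 CER unigenes, the level was 21.9 ± 7.07 TPM in *T. media*, against 3.18 ± 1.36 in *T. cuspidata* and 1.93 ± 0.464 in *T. mairei* (SD, n = 3).

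The 2 unigenes from ko00062 were called in no comparison. comp27535_c0 measured 54.8, 48.9 and 56.0 TPM in *T. media*, with 45.3, 32.2 and 33.4 in *T. cuspidata* and 32.2, 34.5 and 24.5 in *T. mairei*. Between *T. media* and *T. cuspidata* it differed by 0.45 on the log2 scale (SE 0.14, adjusted p = 0.041), short of the fold threshold. comp23293_c0 had between 8.41 and 14.1 TPM in the 9 libraries.

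Because reads of 3 species were assembled together, versions of 1 gene from different species can fall in 1 unigene or in several. The counts were therefore also summed by gene name over the whole table and tested again. Reads shared between names, as for KCS1 with KCS3 and KCS5, stay divided in these sums. Of the 11 KCS and CER names, 5 were higher in *T. media* than in *T. cuspidata* and 0 lower, where 25.3% of all 26757 names and unnamed unigenes were called, 15.3% as higher in *T. media* and 10% in *T. cuspidata*. These 5 were CER3 (6.26, SE 0.70, adjusted p = 0.00035), KCS21 (2.52), CER1 (1.71), KCS2 (1.48) and KCS11 (1.28, SE 0.17, adjusted p = 0.0007). The sums KCS1 (0.15, adjusted p = 0.51) and KCS4 (0.24, adjusted p = 0.23) were not called.

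In *T. media* vs. *T. mairei*, 7 names were higher and 1 lower, with 43% called in all, 20.5% as higher in *T. media* and 22.5% in *T. mairei*. KCS21 (2.73), CER3 (3.66), CER1 (2.5), KCS2 (2.03) and KCS1 (1.16, SE 0.19, adjusted p = 0.0011) were higher in *T. media*, and so were KCS3 and KCS5, each led by the unigene described above. KCS5 turned from 1.46 to -0.21 with the recovered reads of *T. mairei* replicate 3. KCS11 was lower (-1.18, SE 0.18, adjusted p = 0.00087), opposite to its unigenes comp21503_c0, comp27603_c0 and comp21197_c0. On log2(TPM + 1), KCS11 was -0.26 (adjusted p = 0.14), against a median of 0.61 over all unigenes.

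Without *T. mairei* replicate 2 only 5 names were called in this comparison, without CER1, KCS3 and KCS5, and without *T. mairei* replicate 1 KCS1 was 0.94 (adjusted p = 0.012). KCS8 (1.01, adjusted p = 0.058) was not called, but passed without *T. cuspidata* replicate 2 (adjusted p = 0.047).

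In *T. mairei* vs. *T. cuspidata*, 2 names were higher and 3 lower, with 48% called in all, 26.6% as higher in *T. mairei* and 21.4% in *T. cuspidata*. KCS11 was higher in *T. mairei* by 2.47 (SE 0.18, adjusted p = 1.7e-05), with summed TPM of 132, 157 and 138 against 35.6, 44.4 and 52.1, and 112, 122 and 121 in *T. media*. CER3 was higher (2.60, adjusted p = 0.017), at levels below 1 TPM in both species, and was lost without *T. mairei* replicate 2 (1.98, adjusted p = 0.12), which left 3 names called. KCS1 was lower by a margin at the fold threshold (-1.01, adjusted p = 0.0018), and it was -0.91 without *T. cuspidata* replicate 3 and -0.79 without *T. mairei* replicate 1. KCS3 (-2.06) and KCS5 (-1.73) were called lower and were lost with the recovered reads (-0.39 and -0.06). With replicate as a block, KCS1 (-0.95) and KCS3 (adjusted p = 0.063) were not called.

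**Figure D4:**
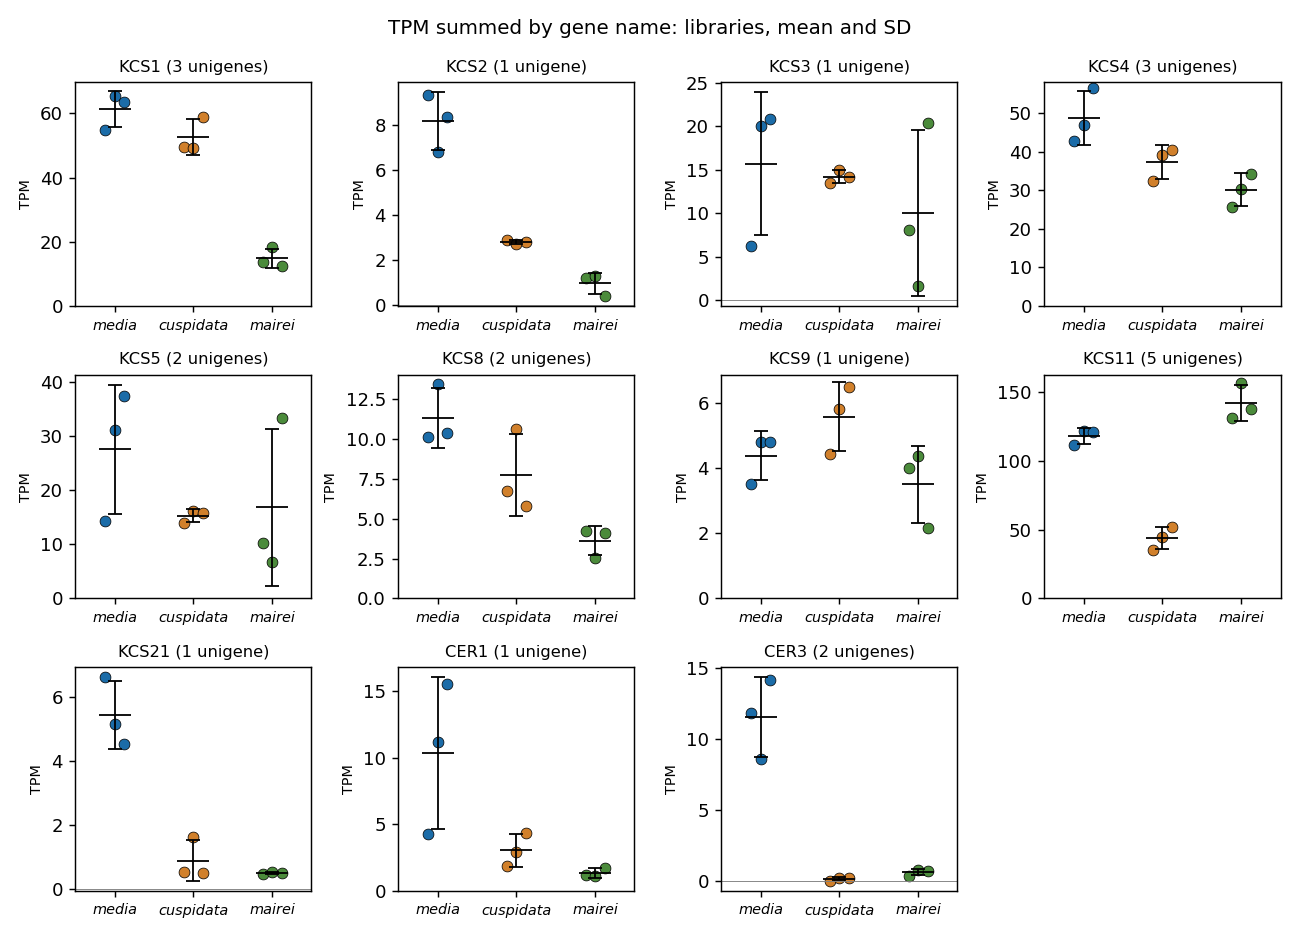
TPM summed over the unigenes of each of the 11 KCS and CER gene names, with 1 point per library, a bar for the mean and whiskers for the SD (n = 3). The axes differ between panels. KCS11 averages 142 TPM in *T. mairei* and 118 in *T. media*, with every point above those of *T. cuspidata*, and the points of KCS3 and KCS5 are widely spread in *T. media* and *T. mairei*.

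Of the 5 unigenes of the other elongase enzymes and CUT1, 2 were called in each comparison, which is 40% beside the backgrounds of 25.8%, 44.3% and 49.3%. ECR and PAS2, the enoyl-CoA reductase and the dehydratase of the cycle, were called in no comparison, with means of 19.1 to 36.5 and 17 to 21.2 TPM. KCR1, the ketoacyl-CoA reductase, was called only in *T. media* vs. *T. mairei* (1.01). Of the 2 CUT1 unigenes, comp30262_c0 (2060 bp) measured 71.1, 78.1 and 86.7 TPM in *T. media*, with 27.9, 23.7 and 30.0 in *T. cuspidata* and 55.8, 58.3 and 57.2 in *T. mairei*, so that *T. cuspidata* was lowest. It was higher in *T. media* and in *T. mairei* than in *T. cuspidata*, by 1.45 (adjusted p = 0.00026) and 1.69 (adjusted p = 6.8e-05). The short CUT1 unigene comp65837_c0 (308 bp) was at 0 in *T. cuspidata*, at 25.4 to 28.6 TPM in *T. media* and at 48.1 to 61.0 in *T. mairei*.

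The 5 unigenes named ABCG11 had their lowest mean TPM in *T. mairei*. ABCG11 is a transporter that carries wax and cutin precursors out of epidermal cells in Arabidopsis. All 5 were called higher in *T. media* than in *T. mairei* (20.8% of all unigenes), and 4 of 5 were lower in *T. mairei* than in *T. cuspidata* (21.5% of all), while *T. media* vs. *T. cuspidata* had 1 call. Among 9 epidermis markers, 4 were likewise higher in *T. media* than in *T. mairei* and 3 lower in *T. mairei* than in *T. cuspidata*, and their part in this result was not tested. The strongest, comp29675_c0, measured 87.6, 90.7 and 82.5 TPM in *T. media*, with 72.0, 58.1 and 57.0 in *T. cuspidata* and 5.12, 5.11 and 3.99 in *T. mairei*, and *T. media* vs. *T. mairei* was 4.51 on the log2 scale (adjusted p = 5.1e-06). The next, comp24676_c0, was 3.26 (adjusted p = 4.1e-06). Of the 2 unigenes of wax esters and alcohols, both were higher in *T. media* than in *T. mairei*. WSD1 (comp22221_c0), a wax ester synthase named here after its values were seen, measured 30.3, 19.5 and 17.8 TPM in *T. media*, with 0.47, 4.55 and 10.5 in *T. cuspidata* and 2.30, 1.85 and 6.20 in *T. mairei*, and was higher in *T. media* in both comparisons (2.30, adjusted p = 0.049, and 2.72, adjusted p = 0.037).

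Cutin and suberin enzymes were divided. Of 32 unigenes tested (fatty acid hydroxylases of the CYP86, CYP94 and CYP77 families, GPAT6, DCR, HTH and HHT1), 6 were higher and 3 lower in *T. media* than in *T. cuspidata*, 10 were higher and 9 lower in *T. media* than in *T. mairei*, and 9 were higher and 10 lower in *T. mairei* than in *T. cuspidata*. The shares called were 28.1%, 59.4% and 59.4%, beside 25.8%, 44.3% and 49.3% of all unigenes. The median log2 fold changes were -0.02, 0.57 and -0.33. CYP86B1 comp27212_c0, a hydroxylase of very-long-chain fatty acids in suberin, had 13.6 ± 1.57 TPM in *T. mairei*, 117 ± 4.6 in *T. cuspidata* and 90.8 ± 10.7 in *T. media* (SD, n = 3). DCR comp28513_c0, an acyltransferase of cutin synthesis, was highest in *T. mairei*, with 116 ± 29.6 TPM against 22.5 ± 3.48 in *T. media* and 6.25 ± 1.45 in *T. cuspidata*.

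CYP77A1 comp30449_c0 was highest in *T. cuspidata* (128 ± 32.8 TPM), with 58.8 ± 8.18 in *T. media* and 29.7 ± 7.68 in *T. mairei*. HTH comp16015_c0, which the files also annotate as mandelonitrile lyase, had 91.0 ± 25.9 TPM in *T. mairei*, 46.5 ± 1.48 in *T. media* and 45 ± 6.43 in *T. cuspidata*. The counts of DCR, CYP77A1 and HTH, like those of CUT1 and of ABCG11 comp29675_c0, were fractional in most libraries, so their reads are shared with similar unigenes. The same holds for LACS8 comp26727_c0, LACS9 comp84111_c0, the enoyl-ACP reductase comp29094_c2 and the desaturase comp7983_c0 given further on, and for LACS9 comp95114_c0 in each counted library where it had reads.

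A further list held 19 unigenes of plastid thioesterases and of acyl-CoA synthetases (LACS), which release and activate fatty acids. Of these, 2 were higher and 2 lower in *T. media* than in *T. cuspidata*, and 2 higher and 9 lower in *T. media* than in *T. mairei*. In *T. mairei*, 7 were higher and 1 lower than in *T. cuspidata*. The shares called were 21.1%, 57.9% and 42.1%, beside 25.8%, 44.3% and 49.3% of all unigenes. Of the 7 higher in *T. mairei* than in *T. cuspidata*, all but FATA comp27036_c0 were between 219 and 319 bp long: LACS9 comp95114_c0 (236 bp) measured 109, 92.3 and 96.2 TPM there, 0 in *T. media* and 0.88, 0 and 0 in *T. cuspidata*. LACS9 comp26727_c1 had 57.7 ± 2.41 TPM in *T. cuspidata*, 27.9 ± 6.65 in *T. media* and 34.2 ± 5.13 in *T. mairei*. On counts it was lower in *T. media* than in both others (-1.15 and -1.11), and the difference between *T. mairei* and *T. cuspidata* was -0.04 (adjusted p = 0.88). LACS8 comp26727_c0 had 87.5 ± 16.7, 39.7 ± 7.25 and 38.0 ± 1.66 TPM in the same order and was called between *T. media* and *T. cuspidata* (-1.22), while *T. mairei* vs. *T. cuspidata* was not called (-0.54, adjusted p = 0.032). LACS9 comp84111_c0 (226 bp) had 77.5 ± 25.7 TPM in *T. mairei*, 29.9 ± 11.9 in *T. cuspidata* and 17.3 ± 7.53 in *T. media*.

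Of 38 unigenes of plastid fatty acid synthesis, 4 were higher and 4 lower in *T. media* than in *T. cuspidata*, 6 higher and 5 lower in *T. media* than in *T. mairei*, and 9 higher and 12 lower in *T. mairei* than in *T. cuspidata*. The shares called were 21.1%, 28.9% and 55.3%, beside 25.8%, 44.3% and 49.3% of all unigenes. KAS2 comp28128_c1, which makes the last elongation step in the plastid, had 316 ± 16.8 TPM in *T. media*, against 360 ± 17.9 in *T. cuspidata* and 85.5 ± 22.6 in *T. mairei*. On the log2 scale *T. media* vs. *T. mairei* was 1.04 (adjusted p = 0.00054) and *T. mairei* vs. *T. cuspidata* was -1.17 (adjusted p = 0.00023). A ketoacyl-ACP reductase, comp26682_c0, was likewise lower in *T. mairei* than in *T. cuspidata* (-1.20). A short unigene annotated as enoyl-ACP reductase II, comp29094_c2 (234 bp), was at 0 in *T. cuspidata* and at 70.3 to 113 TPM in *T. mairei*. The longer comp29094_c1 (1533 bp, named PA1024), with the same annotation, was lowest in *T. mairei*, at 20.7 to 26.4 TPM. *T. cuspidata* had 45.1 to 55.4 TPM of it and *T. media* 50.7 to 77.2. comp29094_c1 was called in no comparison (*T. mairei* vs. *T. cuspidata* -0.40, adjusted p = 0.1). So *T. cuspidata* did not lack reads of this annotation. Whether either unigene acts in plastid fatty acid synthesis was not tested. An acyl-ACP desaturase, comp7983_c0, was higher in *T. mairei* than in both others (1.53 over *T. cuspidata*). No unigene carried the name of a known transcription factor of cuticle synthesis from the list used.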

How the data were processed

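Poly(A) RNA of twigs of 3 *Taxus* species, 3 libraries each, was sequenced and assembled jointly by the authors with Trinity 2.4.0. The aligner and counter are not given in the sources used here. For 8 libraries the authors deposited expected counts (estimated, partly fractional, rounded here), and for all 9 they deposited TPM and RPKM values. *T. mairei* replicate 3 has no count column here, so the main tests rest on 8 libraries, although 9 were planned. In an alternative its reads were recovered from RPKM: 97.1% of 5056 low values lay within 0.1 read of a whole number, with a total of 37821655.

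The members and lists were chosen with earlier results of these data known. Counts were normalized by TMM, filtered with filterByExpr and tested with edgeR 4.0.16 (R 4.3.3), fitting 1 mean per species. The common biological coefficient of variation was 0.37. Thresholds were those of the study. Alternatives used limma 3.58.1 on log2(TPM + 1) and log2(TPM + 0.1), DESeq2 1.42.0, other scalings, filters and fold thresholds, 2 species only, a replicate block, and each library left out. The code was tested on simulated data. TPM was used for levels and RPKM only to recover reads.

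Named with values are members called in any comparison or with a mean of at least 20 TPM. Of each other list, at most 4 called unigenes with that mean are named, in order of mean TPM. The files hold no sequences, and none are printed. p-values set the difference between species against the spread between libraries, and the SE was derived from the same test statistic. The fold bounds set the pooled counts of 1 species against 3 counts in the other. They hold no error of the pooled counts and no spread between libraries. Replicate pairs of 1 species differed by 21.6 to 177 times the sampling variance (chi-square per degree of freedom), so no library was a copy of another, and *T. cuspidata* replicate 1 stood apart from the other 2 (174 and 177), as did *T. media* replicate 1 to a lesser degree (94.7 and 75.9, against 31.8 between the other 2). Figures were drawn with matplotlib 3.10.9.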

Additional observations from a re-analysis of the deposited data

How the results depend on the processing

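Over 19 alternatives other than the fold thresholds, 17 of 37 calls of members and 6 of 18 calls of gene names were counted as lost in none. Calls of unigenes or names left untested by the filter on a mean count of at least 50 were counted as lost. Of those 17, the 2 of comp29769_c0 had no adjusted p from DESeq2 and were not counted as lost there. The members called in *T. media* vs. *T. cuspidata* numbered 7 with a mean count of at least 50 and 6 at an absolute log2 fold change above 2. Those in *T. mairei* vs. *T. cuspidata* numbered 6 by limma on log2(TPM + 1), with or without a filter, and 6 above 2. Gene names called in *T. media* vs. *T. cuspidata* were 2 above 2, and those in *T. media* vs. *T. mairei* were 4 above 2. In *T. mairei* vs. *T. cuspidata*, names called were 2 by limma with or without the filter, 3 with recovered reads and 3 above 2. With recovered reads, *T. media* vs. *T. mairei* turned to -0.32 for KCS5 comp23819_c0 and to -0.21 for the KCS5 sum. By construction, that fit adds 1 library of *T. mairei*. The cause of the other changes was not tested.

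With each library left out in turn, members called ranged from 9 to 12, 13 to 17 and 7 to 9 in the comparison of *T. media* with *T. cuspidata*, that of *T. media* with *T. mairei* and that of *T. mairei* with *T. cuspidata*. Names called ranged from 4 to 5, 5 to 9 and 3 to 5, the low values of the last 2 without *T. mairei* replicate 2. The summed KCS level ranged from 288 to 322 TPM in *T. media*, between 172 and 191 in *T. cuspidata* and 211 to 234 in *T. mairei*, and the CER level from 17.9 to 24.8, 2.48 to 3.83 and 1.69 to 2.15. As normalized CPM, KCS was 510, 334 and 751 and CER 29.5, 7.62 and 4.74. Summing KCS without comp29769_c0 (94.4 TPM in *T. mairei*) and adding its reads to those of comp10706_c0 were chosen after seeing the data. DESeq2 called 12, 15 and 9 members.

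With the replicate number as a block, 11, 15 and 7 members and 5, 7 and 3 names were called. Deviations of same-numbered libraries from their species means correlated between -0.05 and 0.04 over 9 pairs, and those of different-numbered libraries between -0.05 and 0.08. No pairing by number was seen in these values. Whether same-numbered libraries shared a harvest or batch is not given and was not tested.

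Short unigenes at low counts, 2 counted libraries of *T. mairei*, and unigenes that share reads limit these comparisons.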
